A study of Arabidopsis thaliana with 12 samples.

Results

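The GH3 genes of Arabidopsis described here encode the auxin-amino acid synthetases, enzymes that attach amino acids to the auxin indole-3-acetic acid (IAA). The members were the loci AT2G14960, AT4G37390, AT2G23170, AT1G59500, AT4G27260, AT5G54510, AT2G47750 and AT1G28130, each taken only where the array platform pairs a probe set with exactly 1 gene. Of these 8 loci, 6 were measured, among 16746 probe sets with 1 gene and 28583 probe sets in all. The 6 were GH3.1 (AT2G14960), GH3.3 (AT2G23170), WES1 (AT4G27260, also called GH3.5), GH3.4 (AT1G59500), GH3.9 (AT2G47750) and GH3.17 (AT1G28130). BRU6 (AT4G37390) and DFL1 (AT5G54510) are not analysed here.

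Whole wild-type Col-0 seedlings, 7 days old per the sample labels (6 or 7 days of growth in the series text), were shaken for 24 h in liquid half-strength MS medium, 10 to a tube, and then treated. The groups, with 3 arrays each, were IAA 3h, mock 3h, IAA 15min and mock 15min. IAA was given at 1 µM, dissolved in DMSO, and mock was 0.1% DMSO. Times are those of the sample titles and the series text. The short treatment note in the labels lists 3 h and other, shorter times but not 15 min, and this conflict was not resolved. Each array was made from 100 ng of total RNA with a biotin label, and the arrays of a group are repeats of 1 experiment on 3 different days.

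Conjugation to amino acids takes IAA out of the active pool. Depending on the amino acid, the conjugate is stored, from where hydrolases can set the auxin free again, or led on to breakdown. Auxin brings about the destruction of the Aux/IAA repressors, which frees auxin response factors to transcribe their target genes, and several GH3 genes are classic fast targets of this kind, so that auxin raises the enzymes that remove it. Not every member of the family is auxin-inducible.

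Levels are log2 values as deposited. A level of one probe set cannot be set against the level of another, so the members are compared by their changes. The arrays numbered 1 stood apart from the rest. The interquartile range of the log2 values was 2.88 on IAA 3h array 1, 3.79 on mock 3h array 1, 3.46 on IAA 15min array 1 and 3.53 on mock 15min array 1, against 3.89 to 3.92 on the 8 arrays numbered 2 and 3. Values without these 4 arrays are therefore given beside many of the results. A gene is said to have risen or fallen at a limma adjusted p under 0.05 over the 17504 probe sets with a gene name. With 3 arrays a group, their number limits the precision.

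After 3 h of IAA, GH3.3, GH3.1 and WES1 were 12.4-fold, 11.4-fold and 4.12-fold higher than in mock, and GH3.4, GH3.9 and GH3.17 did not pass the test. The 3 genes that rose were 3 of the 6 measured members, whereas 0.171% of all tested probe sets were called higher in this comparison. The same 3 were called with the replicate block, and without the 4 arrays numbered 1, where 0.257% and 0.503% of all tested probe sets were called higher. The median log2 change was 1.14 over the 6 members and 0.06 over all tested probe sets. Ranked from the largest rise, GH3.3 stood at 1, GH3.1 at 3 and WES1 at 5 of the 17504.

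GH3.1, which encodes an IAA-amido synthetase, had log2 levels of 8.16, 8.51 and 8.77 on the IAA 3h arrays numbered 1 to 3, against 4.86, 4.87 and 5.17 on the mock 3h arrays. The lowest IAA array thus lay far above the highest mock array, and the groups averaged 8.48 ± 0.30 with IAA and 4.97 ± 0.17 with mock (SD, n = 3 each). GH3.1 rose by 3.51 on the log2 scale (SE 0.21, 95% interval 3.05 to 3.97; limma adjusted p 3.23e-05). As whole seedlings were measured, more cells that carry the transcript and more transcript per cell cannot be told apart, for this gene or any other.

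GH3.3, an IAA-amido synthetase gene also known for its part in adventitious rooting, had log2 levels of 10.29, 10.85 and 10.93 with IAA at 3 h, against 6.98, 6.80 and 7.37 with mock at 3 h. The groups did not overlap, and averaged 10.69 ± 0.35 with IAA and 7.05 ± 0.29 with mock (SD, n = 3 each). That is a log2 change of 3.64 (SE 0.38, 95% interval 2.81 to 4.47; limma adjusted p 0.00227).

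WES1, whose enzyme acts on auxin and on salicylic acid and whose overexpression dwarfs the plant, had log2 levels of 8.90, 9.61 and 9.61 on the IAA 3h arrays, against 7.55, 7.08 and 7.35 on the mock 3h arrays. IAA array 1 was the lowest of its group and mock array 1 the highest of its own, so the same-numbered difference was 1.35 for number 1, 2.52 for number 2 and 2.26 for number 3. The fit gave 2.04 (SE 0.27, 95% interval 1.45 to 2.63; limma adjusted p 0.0109), and 2.39 without the arrays numbered 1 (SE 0.14, limma adjusted p 0.000269). Of the 3 rises, that of WES1 rested most on the arrays used. Its limma adjusted p was 0.0665 without IAA 3h array 2, 0.0780 without IAA 3h array 3, 0.0501 without mock 3h array 1, 0.0776 without mock 3h array 2, 0.0594 without mock 3h array 3 and 0.0929 with only the 3 h groups in the fit. The calls of GH3.1 and GH3.3 held in all 23 alternative settings, with adjusted p of at most 0.00788 and 0.0263.

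The 3 genes whose groups did not overlap at 3 h were the same GH3.1, GH3.3 and WES1. All tested probe sets held 6.56% with 3 IAA arrays above all 3 mock arrays, so lack of overlap alone was common.

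**Figure D1:**
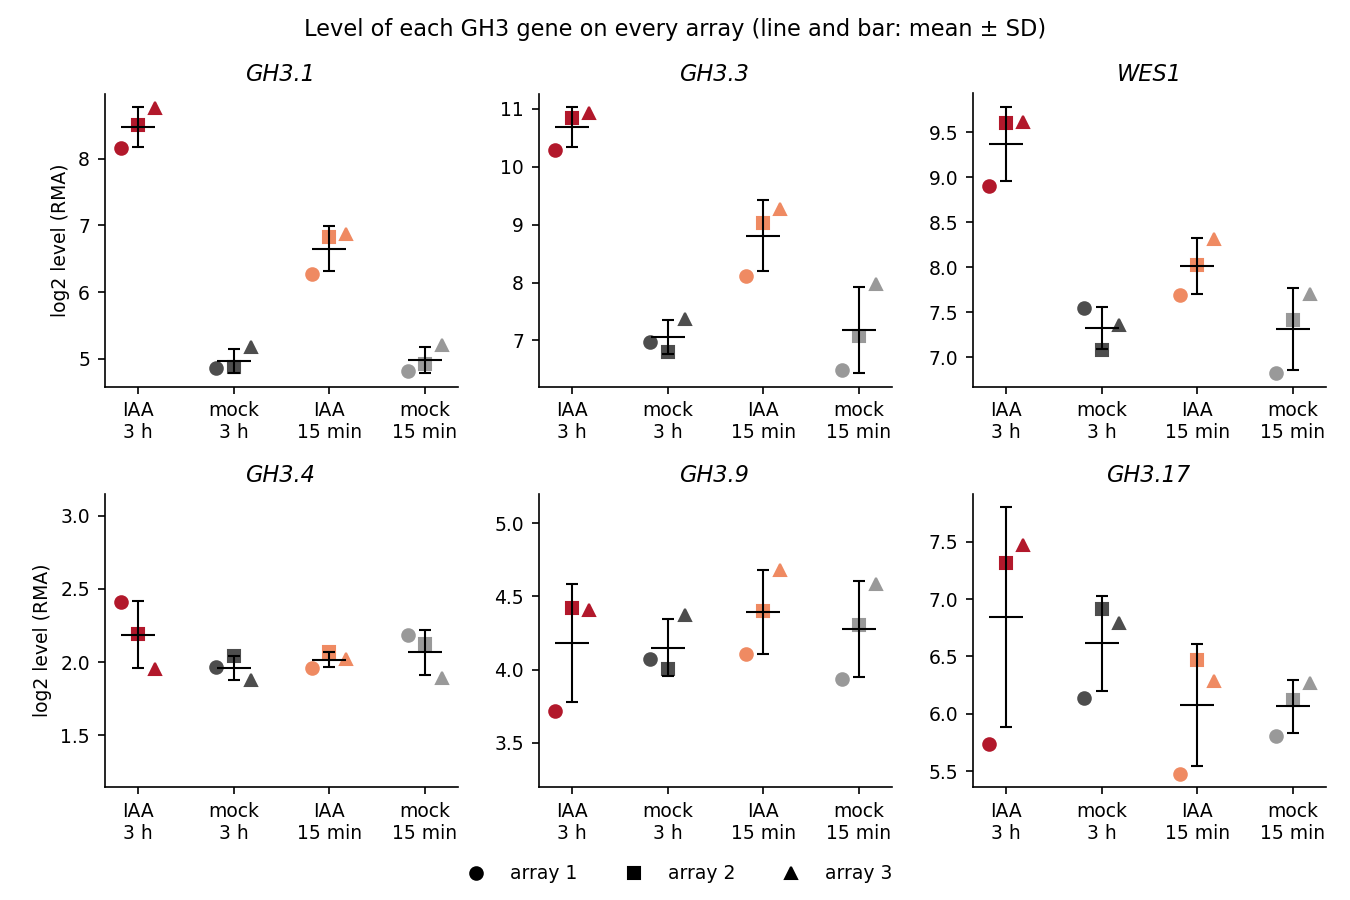
Log2 level of each measured GH3 gene (vertical axis, RMA values) on every array, by group (IAA 3 h, mock 3 h, IAA 15 min, mock 15 min); symbols give the array number, and the line and bar are the mean and SD of 3 arrays. GH3.1, GH3.3 and WES1 lie higher with IAA than with mock at 3 h with no overlap, and the arrays of GH3.4, GH3.9 and GH3.17 overlap between IAA and mock at both times.

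The other members gave small changes at 3 h with intervals of different width. GH3.4, also an IAA-amido synthetase gene, had log2 levels of 2.41, 2.19 and 1.95 with IAA, against 1.97, 2.04 and 1.88 with mock. These are among the dimmest values of the arrays, at percentiles from 4.02 to 14.3 of their arrays over the 12, where RMA compresses differences. The log2 change was 0.22 (95% interval -0.10 to 0.55; limma adjusted p 0.78), so a change of the size seen for WES1 lies outside the interval on this scale. Without the 4 arrays numbered 1 it was 0.11 (SE 0.12, limma adjusted p 0.858).

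GH3.9, studied for its part in primary root growth, had log2 levels of 3.718, 4.421 and 4.408 with IAA at 3 h, against 4.075, 4.004 and 4.373 with mock. IAA array 1 was the lowest of the 6 and the other IAA arrays the highest. IAA minus mock was 0.03 (95% interval -0.49 to 0.55; limma adjusted p 0.966), and 0.23 without the 4 arrays numbered 1 (SE 0.15, limma adjusted p 0.728).

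GH3.17, whose enzyme favours glutamate as the amino acid, had log2 levels of 5.74, 7.31 and 7.47 with IAA at 3 h, against 6.14, 6.91 and 6.79 with mock. IAA array 1 lay below every mock array and IAA arrays 2 and 3 above every one. IAA minus mock was 0.23 with a wide error (SE 0.42, 95% interval -0.69 to 1.15; limma adjusted p 0.851). Without IAA 3h array 1 it was 0.78 (SE 0.30, limma adjusted p 0.886), and without the 4 arrays numbered 1 it was 0.54 (SE 0.11, limma adjusted p 0.0765).

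At 15 min the same 3 genes had the largest positive changes of the family, but a call depended on the fit. Without a block for the replicate number 0 of the 6 members passed, and 0% of all tested probe sets did. Of the 17504, 111 had an unadjusted p under 0.05, a smaller share than the 0.05 reached if no gene changed. The p-values of this fit thus ran large, and without the 4 arrays numbered 1 the count was 864. The reason was not tested. With the replicate number as a block 1 of 6 passed, GH3.1, and 0.0229% of all tested probe sets were called higher. Without the 4 arrays numbered 1, and without the block, GH3.1 passed too, with 0.0628% of probe sets called higher. The median log2 change was 0.41 over the 6 members and 0.00 over all tested probe sets.

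GH3.1 had log2 levels of 6.27, 6.82 and 6.87 on the IAA 15min arrays, against 4.82, 4.92 and 5.20 on the mock 15min arrays. All IAA arrays lay above all mock arrays, by 1.45, 1.90 and 1.66 in the same-numbered pairs. The change was 3.19-fold (log2 change 1.67, 95% interval 1.22 to 2.13). The limma adjusted p was 0.0024 with the block and 0.0841 without. Without the block it was 0.0204 when IAA 3h array 1 was left out of the shared fit and 0.0392 when IAA 15min array 1 was. Over 23 alternatives it ran from 5.13e-06 to 0.735, and 10 of them called GH3.1.

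GH3.3 had log2 levels of 8.11, 9.04 and 9.27 with IAA at 15 min, against 6.49, 7.08 and 7.97 with mock. The lowest IAA array exceeded the highest mock array by little. Both groups were lowest on array 1 and highest on array 3, and the same-numbered differences were 1.63, 1.96 and 1.30. The log2 change was 1.63 (SE 0.38 without the block and 0.22 with it; limma adjusted p 1 and 0.0583). With the block and without the arrays numbered 1 the limma adjusted p was 0.0402.

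WES1 had log2 levels of 7.69, 8.03 and 8.31 with IAA at 15 min, against 6.82, 7.42 and 7.70 with mock. The groups overlapped slightly, IAA array 1 lying just below mock array 3, while each same-numbered pair was positive, by 0.87, 0.61 and 0.61. The log2 change was 0.70 (95% interval 0.11 to 1.28), and the limma adjusted p was 1 with or without the block and from 0.0623 to 1 over 23 alternatives, none of which called it. Without mock 15min array 1 the change was 0.45. The 95% interval over all arrays, which is not adjusted for the 17504 tests, lies above 0.

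GH3.4, GH3.9 and GH3.17 had log2 changes of -0.05 (95% interval -0.37 to 0.27), 0.12 (-0.40 to 0.64) and 0.01 (-0.91 to 0.93) at 15 min, with a limma adjusted p of 1 for each. Without the 4 arrays numbered 1 the changes were 0.037, 0.09 and 0.18, again not called (limma adjusted p 0.998 for each). Their levels ran from 1.96 to 2.07 in IAA and from 1.89 to 2.18 in mock for GH3.4, from 4.11 to 4.68 and from 3.93 to 4.59 for GH3.9, and from 5.48 to 6.47 and from 5.81 to 6.26 for GH3.17. IAA and mock arrays were intermingled in all 3. At this time 2 of the 6 members, GH3.1 and GH3.3, had no overlap between groups, where 2.11% of all tested probe sets had all IAA arrays above all mock arrays.

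**Figure D2:**
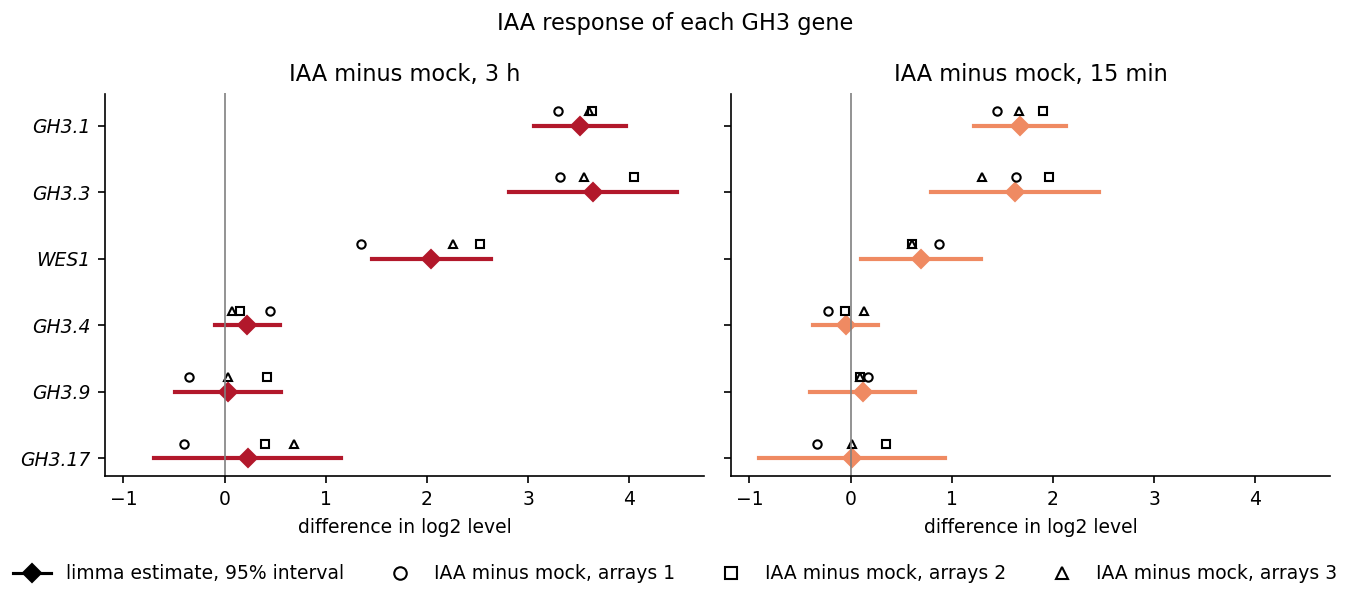
IAA minus mock in log2 level for each GH3 gene at 3 h (left) and 15 min (right); diamonds and lines are the limma estimate and its 95% interval without the block, and open symbols are the same-numbered array differences. At 3 h the intervals of GH3.1, GH3.3 and WES1 lie well above 0 and at 15 min those of GH3.1 and GH3.3 are centred near 1.67 and 1.63, while the intervals of GH3.4, GH3.9 and GH3.17 include 0 at both times.

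Whether members differed in their response was tested within arrays, by the difference between 2 members on each array, set against treatment over both times (exact permutation test of the IAA and mock labels within each time, two-sided, 400 regroupings, smallest possible p 0.005, adjusted over the 15 pairs). This test was added after the values were seen. In pairs with GH3.4, the differences are set against a probe set near background, where RMA compresses changes. Of the 15 pairs, 11 passed. The probe sets of GH3.1 and GH3.3 responded by 1.22 and 1.26 log2 units more than that of WES1, averaged over the 2 times (adjusted p 0.0075 for both). The test cannot tell a difference between genes from one in how their probe sets register a change. The difference between GH3.1 and GH3.3 was -0.04, with same-numbered values from -0.23 to 0.20 (p 0.81). Each of the 9 pairs of GH3.1, GH3.3 or WES1 with GH3.4, GH3.9 or GH3.17 passed, the smallest being WES1 over GH3.17 by 1.25 (same-numbered values 1.08 to 1.48, adjusted p 0.0075) and the largest GH3.3 over GH3.9 by 2.56. The raised members were picked by their calls on these same arrays, so the 9 passing pairs add no separate support for that split. Of the 3 pairs among GH3.4, GH3.9 and GH3.17, 0 passed, with differences between -0.04 and 0.01. For GH3.4 against GH3.17 the same-numbered values ran from -0.33 to 0.48.

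Between the times with IAA, levels of the raised members were higher at 3 h. On the IAA 3h arrays, against the IAA 15min arrays, GH3.1 was 3.54-fold higher (log2 difference 1.82, SE 0.21, limma adjusted p 0.00633), the 1 member of 6 called without the block, where 0.0457% of all tested probe sets were called higher. With the replicate block 3 of 6 were higher, against 0.149% of all probe sets, namely GH3.1, GH3.3 (log2 difference 1.88, SE 0.22, limma adjusted p 0.00758, and 0.139 without the block) and WES1 (1.36, SE 0.21, limma adjusted p 0.0331, and 0.133 without the block). The levels given above did not overlap between the times for these 3 genes, while 3.31% of all probe sets had all IAA 3h arrays above all IAA 15min arrays. GH3.1 lost this call without IAA 15min array 2 (limma adjusted p 0.0511) or with only these groups in the fit (0.381), and WES1 gained one without IAA 3h array 1 (0.0341). Without the 4 arrays numbered 1, and without the block, 4 of 6 were called, where 0.886% of all probe sets were called higher, namely GH3.1, GH3.3 (limma adjusted p 0.021), WES1 (0.00336) and GH3.17. GH3.4 and GH3.9 had log2 differences of 0.17 and -0.21 between these groups, 0.03 and -0.12 without the arrays numbered 1, and neither was called.

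GH3.17 had higher mean levels at 3 h than at 15 min with IAA and with mock. With IAA the same-numbered differences were 0.26, 0.84 and 1.19. In both treatments the levels given above overlapped between the times. Neither passed over all arrays (log2 difference 0.77 with IAA and 0.55 with mock, SE 0.42 for both, limma adjusted p 1 for both). Without the arrays numbered 1 both passed, at 1.02 with IAA (SE 0.11, limma adjusted p 0.00415) and 0.66 with mock (SE 0.11, limma adjusted p 0.0464, 0.171% called higher). The response to IAA itself then differed by 0.36 between the times (SE 0.15, limma adjusted p 0.722).

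In mock seedlings 0 of the 6 members and 0% of all probe sets passed between 3 h and 15 min. Of the 17504, 499 had an unadjusted p under 0.05, again a smaller share than if no gene changed. Without the arrays numbered 1 the count was 1958. The log2 differences were -0.01 for GH3.1 (95% interval -0.47 to 0.45), -0.13 for GH3.3 (-0.96 to 0.70), 0.01 for WES1 (-0.58 to 0.60), -0.10 for GH3.4 (-0.43 to 0.22) and -0.12 for GH3.9 (-0.65 to 0.40). For 0 of the 6 did all mock 3h arrays lie above all mock 15min arrays, which held for 3.99% of all probe sets. When the arrays numbered 1 were left out, the differences of GH3.3 and WES1 were -0.44 (SE 0.28) and -0.34 (SE 0.14), those of GH3.1, GH3.4 and GH3.9 were -0.04, -0.05 and -0.26, and these 5 were again not called (limma adjusted p 0.421 to 0.96).

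**Figure D3:**
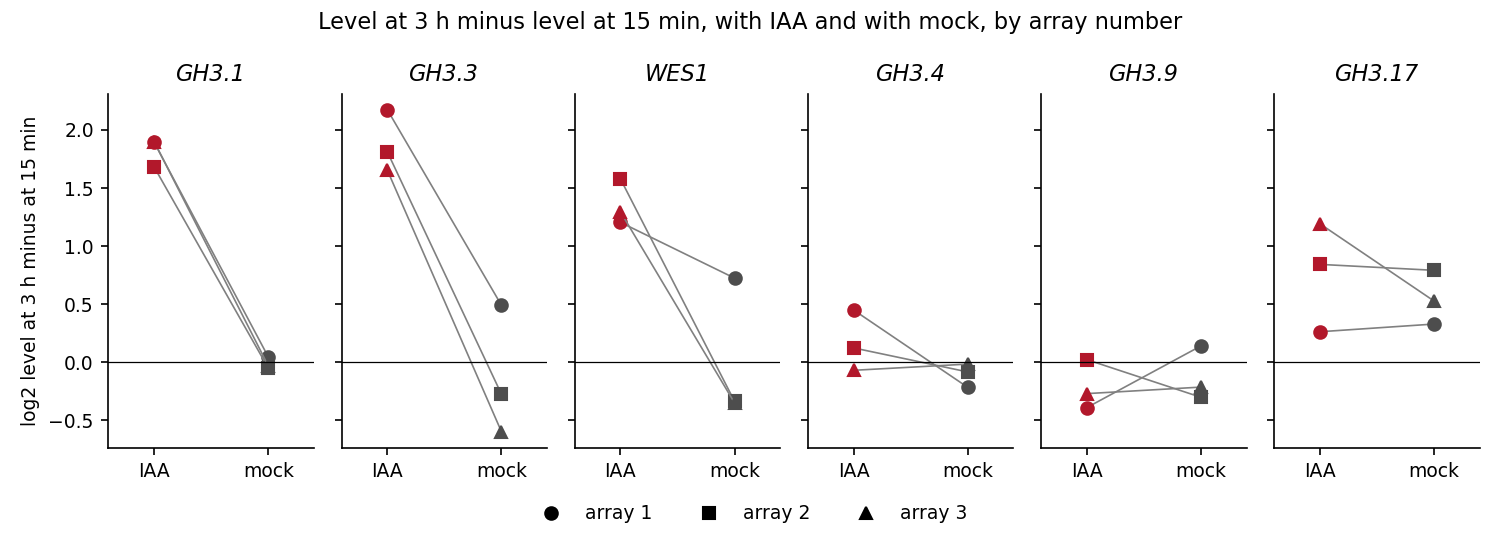
Log2 level at 3 h minus log2 level at 15 min for each GH3 gene, with IAA (left in each panel) and with mock (right); each point is the difference between the arrays of one number and each line joins points of one number. For GH3.1, GH3.3 and WES1 every IAA difference lies above every mock difference; the numbers were not taken to pair the mock arrays of the 2 times, so the mock points show how values of one number lie and not replicate differences.

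The change in the IAA response itself, the response at 3 h minus the response at 15 min, was positive for GH3.1 in all 3 same-numbered sets, at 1.85, 1.73 and 1.93. The numbers were not taken to pair the mock arrays of the times, so such sets are not replicate differences. The block gives each number 1 effect for all 4 groups, so calls made with it rest on that same pairing. The mean for GH3.1 was 1.84 (SE 0.30 without the block and 0.18 with it). Without the block 0 of the 6 members and 0% of all probe sets were called higher. An unadjusted p under 0.05 was held by 333 probe sets, a smaller share than if no gene changed. Without the arrays numbered 1 the count was 1205. GH3.1 did not pass without the block (limma adjusted p 0.233, and 0.0443 without IAA 3h array 1) and passed with it (0.00862), when 0.00571% of all probe sets were called higher, which is GH3.1 alone. GH3.3 had a difference of 2.01 (same-numbered values 1.68, 2.09 and 2.25; limma adjusted p 0.999 without and 0.13 with the block), and WES1 one of 1.35 (0.48, 1.92 and 1.65; limma adjusted p 0.999 and 0.398). Without the arrays numbered 1, 2 of 6 members passed without the block, GH3.1 and WES1 (limma adjusted p 0.0281 and 0.0287), where 0.08% of all probe sets were called higher. GH3.4, GH3.9 and GH3.17 had differences of 0.27, -0.09 and 0.22, with limma adjusted p of 0.999 each, and of 0.08, 0.13 and 0.36 without the arrays numbered 1, when none was called.

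**Figure D4:**
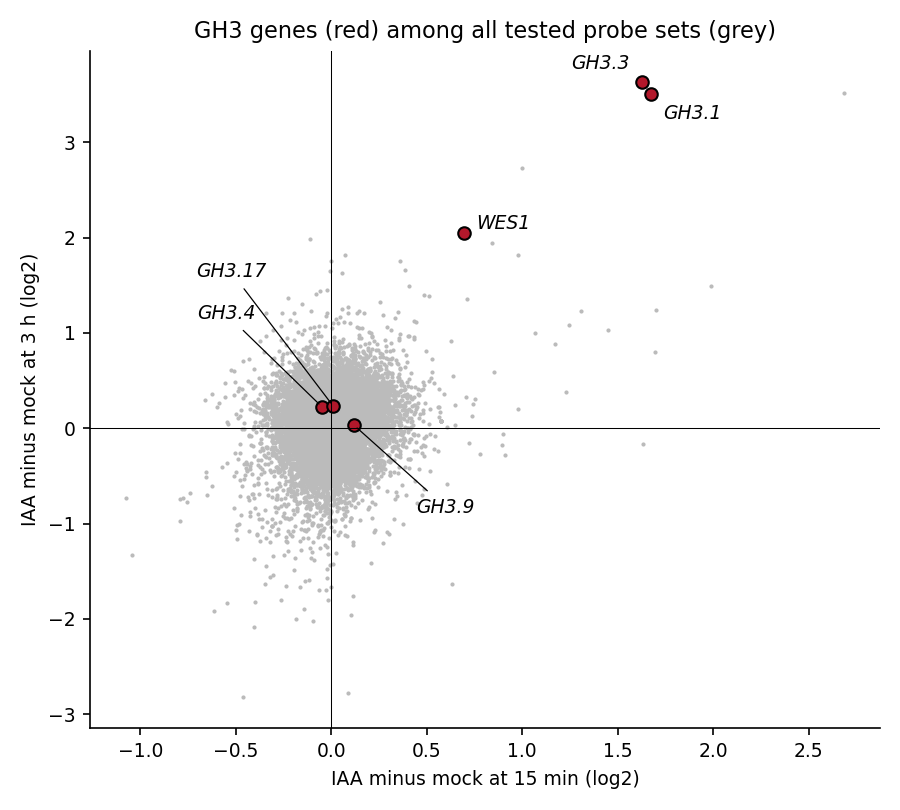
IAA minus mock in log2 level at 15 min (horizontal axis) and at 3 h (vertical axis) for all tested probe sets (grey) and the 6 GH3 genes (red); the 2 comparisons share no arrays. GH3.3 and GH3.1 lie at the upper right with WES1 below them, and GH3.4, GH3.9 and GH3.17 lie within the main cloud.

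For each raised member, the 3 genes whose levels followed it most closely over the 12 arrays are given as a description, as all follow the same 4 groups. For GH3.1 they were IAA29, which encodes an Aux/IAA repressor (Pearson r 0.964), AT1G30190 (0.943) and LBD29, for an LBD transcription factor that acts when lateral roots start (0.943), out of 16740 other genes. For GH3.3 they were LBD29 (0.966), AT1G67900 (0.959) and AT1G30190 (0.931), and for WES1 AT1G67900 (0.929), AT1G30190 (0.926) and LBD29 (0.924). IAA29 was higher with IAA by 2.73 at 3 h (limma adjusted p 0.00081), and its change at 15 min was 1.00 (limma adjusted p 1). Over the 8 arrays numbered 2 and 3, IAA29 stayed the closest to GH3.1 (0.984) and AT1G67900 the closest to GH3.3 (0.98), while LBD29 stood at rank 9 for GH3.1 and, for WES1, AT1G67900 stood at rank 27, AT1G30190 at 7 and LBD29 at 51. Among the raised members themselves, Pearson r over the 12 arrays was 0.985 for GH3.1 and GH3.3, 0.976 for GH3.3 and WES1 and 0.96 for GH3.1 and WES1.

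Other genes of the family and of auxin inactivation were looked at by lists. GH3 genes other than the loci of the rule, listed as having other or unknown substrates, had 8 of 11 loci measured. Of these, 0 were called at 3 h or at 15 min, with or without the block, and their median log2 change was 0.10 at 3 h and 0.05 at 15 min. AT5G13360, AT5G13350, AT1G48660, AT5G51470 and AT1G23160 had mean log2 levels from 1.91 to 2.57. These lie under 2.70, the lowest 25th percentile of any array, where RMA compresses differences. For these genes the lack of a call therefore says little. The largest at 3 h was AT5G13380, at 0.55 (95% interval -0.20 to 1.30; limma adjusted p 0.78), and 0.08 without the 4 arrays numbered 1 (limma adjusted p 0.936). Without those arrays the list's changes at 3 h ran from -0.64 to 0.48 with a median of -0.01, and 0 were called (lowest limma adjusted p 0.0623). Between IAA 3h and IAA 15min, AT5G13370 was called without the arrays numbered 1 (log2 difference 0.89, SE 0.12, limma adjusted p 0.0123) and not with them (0.69, SE 0.34, limma adjusted p 1).

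IAA can also be inactivated by oxidation, by glucosylation and by methylation. Of 6 loci for such enzymes 4 were measured, and 0 were called in any of the 5 comparisons, with or without the block. UGT84B1 had a mean log2 level of 1.72, where RMA compresses differences, and only the brighter of 2 probe sets of UGT74D1 was counted. Their median log2 change was -0.01 at 3 h and -0.11 at 15 min. AT1G14120, for a DAO-type IAA oxidase, had the largest at 3 h, -0.55 (95% interval -0.96 to -0.15; limma adjusted p 0.637), and the other measured genes of the list lay between -0.21 and 0.34. With the arrays numbered 1 left out, AT1G14120 was at -0.31 (95% interval -0.51 to -0.10; limma adjusted p 0.233), and the list's median was -0.08. Auxin-amino acid hydrolases, auxin receptors and auxin response factors are not analysed here.

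The share of root and shoot in the harvested seedlings was looked at with the few markers measured. Of 5 root markers, 2 were measured. PYK10, abundant in roots, had log2 levels from 10.93 to 11.40 in IAA 3h, 11.37 to 11.49 in mock 3h, 11.21 to 11.38 in IAA 15min and 11.06 to 11.32 in mock 15min, with an IAA minus mock difference of -0.19 at 3 h (95% interval -0.53 to 0.14). EXPA7, of root hairs, differed by -0.06 at 3 h (-0.58 to 0.47). Without the 4 arrays numbered 1, PYK10 differed by -0.0085, EXPA7 by -0.25 and RCA, described next, by -0.05. The 1 of 5 shoot markers measured, RCA, rubisco activase, ran from 10.54 to 10.61 in IAA 3h and from 10.51 to 10.66 in mock 3h, a mean difference of -0.01 (-0.27 to 0.25). None of the 3 was called. The part of tissue shares in the GH3 changes was not tested further.

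Whether a probe set of 1 GH3 gene also binds transcripts of a close relative was not tested.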

How the data were processed

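Values are on the log2 scale, as the authors deposited them; the submitters' processing notes name RMA and oligo, without a version. RMA subtracts background, normalizes between arrays and summarises the probes of a set. The deposited arrays did not share a common distribution, as their interquartile ranges ran from 2.88 to 3.92. Whether all 12 arrays were normalized together is not stated. No coordinates are printed: the genome build is not given in the sources used here. The 28583 probe sets were paired with genes by the platform annotation (16746 with 1 gene, 758 with several, 11079 with none) and named from RefSeq (assembly TAIR10.1), where gene numbers matched 16601, locus tags another 96, and 49 retained the symbol of the platform.

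The test was limma's moderated one (lmFit and eBayes, version 3.58.1, under R 4.3.3) on the values as deposited, all 4 groups in 1 fit, with Benjamini-Hochberg adjustment over 17504 named probe sets. No filter was applied to dim probe sets. The fit had 8 residual degrees of freedom and 3.52 prior ones. The fit was tested on simulated data for IAA 3h minus mock 3h (17504 genes), where it recovered 48% of log2 changes of 1, 88% of 2, 96% of 3 and 100% of 4, with 50 genes of each size changed and 13 false calls. The simulated noise was independent between arrays and genes, with the same SD for a gene in all groups. The real deviations correlated between arrays, and the arrays numbered 1 differed in their spread. These rates therefore check the fit only and do not carry over to the real data. Python 3.11.15 with pandas 2.3.3 made the summaries. The p-values measure the spread between 3 repeats of 1 experiment.

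Deviations of same-numbered arrays from their group means correlated at 0.127, 0.117 and 0.172 between IAA 3h and mock 3h. Between IAA 15min and mock 15min they correlated at 0.781, 0.65 and 0.639, and between IAA 3h and IAA 15min at 0.705, 0.579 and 0.611. These correlations all lay above 0.1, the cutoff used for pairing. Between mock 3h and mock 15min they were 0.0628, 0.0815 and 0.206, so the numbers were not taken to pair these. Between IAA 15min and mock 3h they were 0.0786, 0.0498 and 0.187. Between mock 15min and IAA 3h they were 0.661, 0.518 and 0.578. The block gives each number 1 effect for all 4 groups, mock 3h included. The series text names 3 days, not their numbers. Within a group the 3 deviations cancel out, so the outlying arrays numbered 1 also shape those of the other arrays. Differently numbered arrays were not compared as a baseline. The cutoff therefore cannot decide whether same-numbered arrays share a day, and the block rests on that assumption. The block is printed where it changes a call.

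All members were named. Genes most like GH3.1, GH3.3 and WES1 were the 3 with the highest Pearson correlation, and of each list the called members and that with the largest change at 3 h were named. A listed gene with over 1 probe set was represented by the brighter. The members and lists were chosen with earlier results of these data known. At most 7 values were identical between replicate arrays, so none was counted as a copy. Other fits tried were the replicate block, quantile normalization, other sets of probe sets, a trend in the prior, array weights, fewer groups and fewer arrays. Promoter motifs were not searched and no sequences are shown.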

Additional observations from a re-analysis of the deposited data

Results flagged for a closer look

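GH3.1 is listed because a direct test of a difference in IAA response between the times passed in the fit with the replicate block. The response at 3 h minus that at 15 min was 1.84 on the log2 scale (SE 0.18, limma with the replicate block, adjusted p 0.00862). It was positive in 3 of 3 same-numbered sets, though the numbers were not taken to pair the mock arrays of the 2 times. The block applies 1 effect per number to all 4 groups, these mock arrays included. The call with the block therefore rests on a pairing that was not established. Without the block the limma adjusted p was 0.233, so GH3.1 was not called there. Over 22 alternatives the limma adjusted p ran from 0.000165 to 0.728, and 7 of them called GH3.1.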

How the results depend on the processing

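With the replicate number as a block, the number of members called was 1 (0 without it) for IAA against mock at 15 min, 1 (0) for the difference between the responses at 3 h and 15 min, and 3 (1) for IAA at 3 h against IAA at 15 min, and it changed no other count of members. Quantile normalization gave 1, 1 and 2 called, and together with the block 1, 1 and 3. Array weights gave 2, 3 and 4, leaving out the 4 arrays numbered 1 gave 1, 2 and 4, and leaving them out with the block, a setting chosen after seeing the data, gave 2, 3 and 4. Testing all probe sets, or only those brighter than the median, gave 1 called at 15 min, and fitting only the groups compared gave 0 for IAA at 3 h against 15 min. Leaving out 1 array at a time gave 0 to 1 at 15 min, 0 to 1 for the difference between responses and 0 to 2 for IAA at 3 h against 15 min. For mock at 3 h against 15 min the count was 1 (GH3.17) with array weights and without the arrays numbered 1, and 0 in the main setting. The count at 3 h, 3, was 2 to 3 in every alternative. The share of all probe sets called is given above for the main fit, the block and the fit without the arrays numbered 1. For IAA at 3 h against 15 min it rose from 0.0457% in the main fit to 0.886% without those arrays. For the other settings no such share is given, so their counts of members have no baseline here. The cause of these differences was not tested.

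Sign changes occurred only for differences that were not called. GH3.4 at 15 min was 0.037 without the arrays numbered 1, with or without the block. With quantile normalization, block or not, GH3.9 at 3 h was -0.12, and in mock at 3 h against 15 min GH3.1 was 0.0053 and WES1 -0.015. With array weights the response difference of GH3.9 was 0.13 and the mock difference of WES1 -0.29, and without the arrays numbered 1 (block or not) they were 0.13 and -0.34. Leaving out 1 array at a time, values at 15 min ran from -0.14 to 0.0095 for GH3.4, -0.052 to 0.27 for GH3.9 and -0.19 to 0.31 for GH3.17, and at 3 h from -0.088 to 0.26 for GH3.9 and -0.088 to 0.78 for GH3.17. The response difference ran from -0.24 to 0.14 for GH3.9 and -0.10 to 0.77 for GH3.17, and IAA at 3 h against 15 min from -0.35 to 0.021 for GH3.9. In mock they ran from -0.11 to 0.10 for GH3.1, -0.47 to 0.27 for GH3.3, -0.23 to 0.21 for WES1 and -0.29 to 0.032 for GH3.9. The filter on dim probe sets left out GH3.4 and GH3.9, and the search for promoter motifs was not run. GH3.4 lies near the lower end of the signal, which limits what a small change there can show.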

Other observations

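Within groups, the members' deviations from their group means went together across the 12 arrays in a way that depended on scaling. As deposited, the Pearson correlations of these deviations lay between 0.63 and 0.92 over the 10 pairs of GH3.1, GH3.3, WES1, GH3.9 and GH3.17, and between -0.72 and -0.56 for GH3.4 with each of these 5. After quantile normalization the 10 pairs lay between 0.38 and 0.89, and GH3.4 was at 0.06 to 0.54 with the others, so its sign turned. GH3.4 is the dimmest member, and on the arrays numbered 1 the 25th percentile of all probe sets was 3.35 for IAA 3h, 2.73 for mock 3h, 3.03 for IAA 15min and 2.98 for mock 15min, against 2.70 to 2.74 on the arrays numbered 2 and 3. The part of these distributions in the correlations was not tested beyond that renormalization.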
